A study of Mus musculus with 15 samples.

Results

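Bidirectional, or head-to-head, promoters are stretches from which a gene on the minus strand and a gene on the plus strand are read away from each other. They were taken as all pairs of autosomal protein-coding genes of the GENCODE M21 annotation that lie on opposite strands, diverge and have their starts at most 1000 bp apart, a rule that uses positions only. The rule gave 734 pairs with 1448 of the 20807 autosomal protein-coding genes, and 40 of the pairs share a gene with another pair. The starts of a pair lay 1 to 987 bp apart with a median of 128 bp, and 602 pairs had a distance of at most 300 bp. Each pair was followed from 3 kb downstream of the start of the left gene (minus strand) to 3 kb downstream of that of the right gene (plus strand). Where a gene is shorter than 3 kb, its side runs past the gene's end. In all, the windows held 108466 different CGs, 0.532% of the autosomal CGs, and 23 neighboring pairs had windows that overlap. Another 446 combinations of opposite-strand genes start within 1000 bp of each other but overlap instead of diverging, and they were not members.

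All libraries were made from DNA of one line of mouse embryonic stem cells, E14TG2a, grown on gelatin with LIF and fetal bovine serum. No treatment or edit of the line is described. The groups differ by design in assay and DNA input, and they also differ in sequencing depth. 5hmC was mapped by hmTOP-seq, in which BGT puts an azide-glucose on 5hmC, an oligonucleotide is clicked to the azide and DNA synthesis is primed at the tagged base. It was run at 500, 50 and 5 ng of DNA with 2 technical replicates each and with 2 control libraries per input from which BGT was left out. Unmodified CGs (uCGs) were mapped by uTOP-seq at 300 ng in 3 replicates. The spread between hmTOP-seq replicates is thus a technical one, while the sources do not say whether the uTOP-seq replicates share 1 DNA. With 1 cell line, no spread between libraries covers differences between lines. The files hold read counts per CG, and the measure used here is reads per CG of a region, which for 5hmC is a relative level and not a percentage of modified molecules.

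In mammalian genomes most CGs are methylated, while the CG-rich promoters of widely expressed genes are kept free of methylation. The TET enzymes oxidize 5mC to 5hmC, which in embryonic stem cells gathers at the edges of CpG islands, at enhancers and in gene bodies and is low at the starts of active genes. Head-to-head promoters are typically CG-rich, and many serve housekeeping genes of DNA repair, histone supply and mitochondria. Here 5hmC at the starts was lower than at one-directional promoters with as many CGs, and the unmodified CG signal was higher.

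The sequences below are those of the CG with the most 500-ng reads in 5 of the 6 highest windows. That of Atm/Npat, one of the best known head-to-head pairs, follows for contrast. The CGs of Cbln3/Khnyn, Hist1h2ba/Hist1h2aa, Nmur1/Tex44 and Atm/Npat lie 1799, 157, 970 and 467 bp downstream of the start on their side. They are the plus strand of mm10 with 12 bases on each side, and the capitals mark the CG. The last line gives all bases from one start to the other for Mrpl54/Apba3, whose starts are 26 bp apart, at chr10:81266934-81266960.
Odf3l1/Cspg4, chr9:56864746-56864771, between the starts: cccctacatcacCGcaagggcagaag
Nisch/Sema3g, chr14:31217697-31217722, between the starts: cagttagctgcaCGggcattgagcgg
Cbln3/Khnyn, chr14:55886734-55886759, coding exon of Khnyn: acagtcttgtccCGgagcccctgaca
Hist1h2ba/Hist1h2aa, chr13:23934607-23934632, coding exon of Hist1h2aa: cagtgtatctggCGgcagtgctagaa
Nmur1/Tex44, chr1:86425246-86425271, intron of Nmur1: gtgtctcagcccCGgcagcagtcaca
Atm/Npat, chr9:53537502-53537527, intron of Npat: ctgcgtgatggaCGaggctgcgtgtc
Mrpl54/Apba3, both starts included: cagccctccagatCGgctttggaggtg

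At these CGs the replicates of 500 ng gave 43 and 40 reads for Odf3l1/Cspg4, 53 and 49 for Nisch/Sema3g, 49 and 45 for Cbln3/Khnyn, 39 and 33 for Hist1h2ba/Hist1h2aa and 43 and 59 for Nmur1/Tex44. For Atm/Npat, the CG with the most reads had 6 and 0. The CGs were picked by these reads, so the counts describe them and test nothing. The only CG between the starts of Mrpl54 and Apba3 had no 5hmC read in either replicate and a mean of 6.33 uCG reads.

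Library depth ranged from 31918445 to 32502791 reads for 500 ng, from 22052535 to 23027170 for 50 ng, from 14884939 to 15277636 for 5 ng, and from 20120568 to 28412885 for uTOP-seq. The pair windows took 102437 and 100618 of the 500-ng reads, 0.319% of the autosomal reads in both replicates, against their 0.532% of the CGs. In the control libraries without BGT they held 48 and 44 reads (500 ng), 14 and 7 (50 ng), and 0 and 14 (5 ng). A read was present on 20.01% and 20.73% of their CGs at 500 ng. The uTOP-seq libraries were the other way round, with 1.30% to 1.33% of the autosomal reads in the pair windows. Soft-masked (repeat) sequence made up a mean of 20.7% of the bases of pair windows and 21.7% of those of one-directional windows at equal CG number.

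To ask whether a pair of diverging starts differs from a single one, the pairs were compared with 14556 one-directional promoters. These have no other protein-coding start within 5 kb and no other protein-coding gene in the 3 kb upstream. All starts are annotated gene starts, and whether they are used in these cells was not tested. The same clearance was not required of the pairs, so their sides can hold further starts or genes. The classes were matched for CG number only and not for expression or for this clearance, and the part of either in the differences was not tested. To hold CG number equal, one-directional promoters were weighted to the CG numbers of the pairs, and the ratio was formed on each of the 19 autosomes. In the 500-ng replicates, pair windows had 0.971 and 0.958 reads per CG, whereas one-directional windows had 1.47 and 1.44. The replicates lay far closer to each other than the classes did. The mean ratio over the autosomes was 0.650 (95% interval 0.589 to 0.718), a log2 ratio of -0.62, and pairs were lower on 19 of 19 autosomes (permutation test in which the signs of the 19 log2 ratios were flipped, two-sided, adjusted p = 2e-05). The value ranged from -1.07 on chromosome 3 to -0.08 on chromosome 14.

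Unmodified CGs went the opposite way. The pair windows had 3.37, 2.81 and 2.39 uCG reads per CG in the 3 replicates, and the one-directional windows had 2.86, 2.37 and 2.002. These replicates differ mainly by their depth, and within each of them pairs were higher, with ratios of 1.18, 1.19 and 1.20. Over the autosomes the ratio was 1.18 (1.14 to 1.22), a log2 ratio of 0.24, with pairs higher on 18 of 19 (permutation test, adjusted p = 2e-05). The exception was chromosome 13 with a log2 ratio of -0.003, which carries 12 of the 14 pairs with a clustered histone gene, described further on, and their part in this value was not tested.

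**Figure D1:**
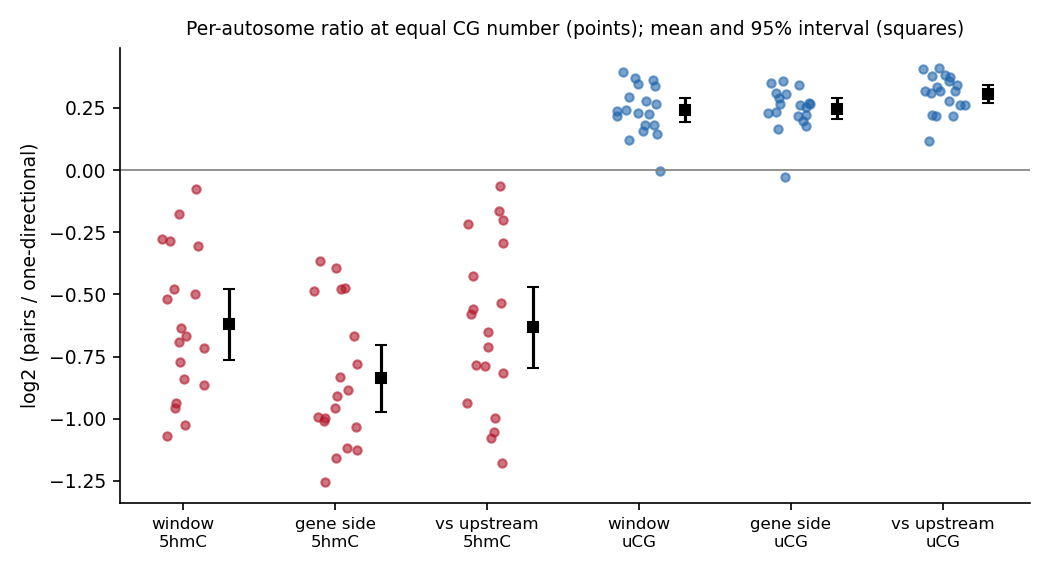
Log2 ratio of pairs over one-directional promoters at equal CG number, for 5hmC at 500 ng (red) and uCG (blue); each point is an autosome, and squares with bars are the mean over 19 autosomes with its 95% interval. "Window" compares whole windows. "Gene side" and "vs upstream" compare the 3 kb downstream of each start of a pair with the gene side and with the upstream side of one-directional promoters. Every 5hmC point lies below 0.

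The sides of the pairs were also held against each side of one-directional promoters. The gene side of a pair (1468 sides) had 1.07 ± 0.006 5hmC reads per CG (SD, n = 2) and that of one-directional promoters 1.87 ± 0.04, a ratio over the autosomes of 0.560 (0.510 to 0.615), lower on all 19 autosomes. Against the upstream side of one-directional promoters the ratio was 0.645 (0.576 to 0.722), again lower on 19 of 19. For uCG the ratios were 1.19 (1.15 to 1.22) and 1.24 (1.21 to 1.27), higher on 18 and 19 of 19 autosomes. The adjusted p was 2e-05 in all 4 comparisons (sign-flip permutation test).

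The difference in 5hmC was concentrated near the starts. Within 200 bp of a start, pairs had 0.193 ± 0.0008 reads per CG (SD, n = 2), one-directional promoters 0.813 ± 0.03 on the gene side and 0.312 ± 0.01 on the upstream side. At 800 to 1000 bp the levels were 1.10, 2.04 and 2.24, and at 2600 to 2800 bp they were 2.42, 2.58 and 2.57. Only at 2800 to 3000 bp were pairs highest, with 2.72 against 2.55 and 2.46, a turn that was not tested. The uCG level of pairs was 2.96 ± 0.53 within 200 bp (n = 3), reached 3.502 ± 0.58 at 400 to 600 bp and was 1.72 ± 0.30 at 2800 to 3000 bp.

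**Figure D2:**
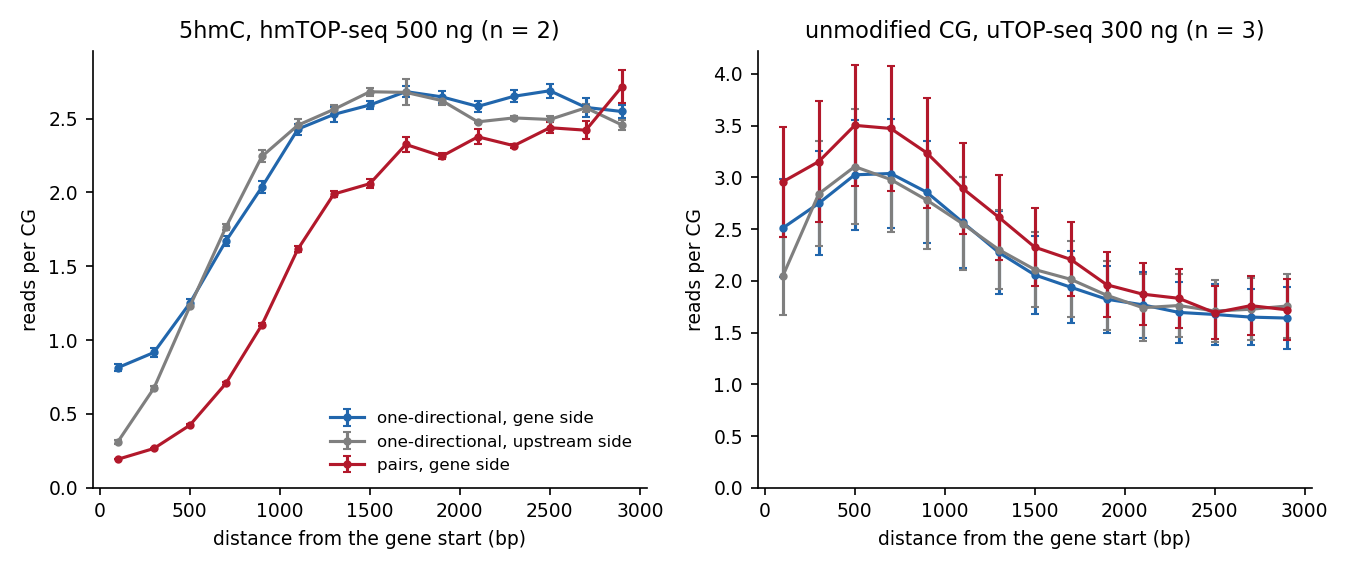
Reads per CG against the distance from the gene start in bins of 200 bp, for 5hmC (left, mean and SD of 2 replicates) and uCG (right, mean and SD of 3 replicates of different depth). One-directional promoters are weighted to the CG number of the pairs' sides; the 5hmC curve of the pairs starts at 0.193 reads per CG and lies under both others up to 2800 bp.

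Split at 1 kb, a division chosen after seeing the profile, the gene side of pairs had 0.634 reads per CG within 1 kb and that of one-directional promoters 1.62, a ratio over the autosomes of 0.394 (0.328 to 0.474) and lower on 18 of 19 autosomes (permutation test, adjusted p = 4.8e-05 over 12 values of this split). From 1 to 3 kb the ratio was 0.950 (0.895 to 1.01), which did not pass (adjusted p = 0.103). The log2 ratio within 1 kb was lower than that at 1 to 3 kb by 1.27 (interval of the difference -1.50 to -1.03, 19 of 19 autosomes, permutation test, adjusted p = 4.8e-05). Against the upstream side the ratios were 0.602 within 1 kb and 0.910 from 1 to 3 kb, and both passed (permutation test, adjusted p = 0.000394 and 0.0167). For uCG the gene-side ratios were 1.15 and 1.16, and their log2 difference of -0.02 had an interval of -0.09 to 0.06. Against the upstream side the uCG ratios were 1.25 and 1.33, with a log2 difference of -0.097 (interval -0.180 to -0.014, permutation test, adjusted p = 0.0167). The profile, with its other matching, did not show a larger uCG ratio far from the start. Pairs had 2.96 uCG reads per CG within 200 bp against 2.04 on the upstream side, and 1.72 against 1.76 at 2800 to 3000 bp. The order of the uCG ratios of the 2 zones thus depends on the matching.

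In most pairs the bases between the starts held no 5hmC read. Where starts lie close, few CGs lie between them, so an absence of reads can also be met at a low level. The mean over pairs was 0.269 reads per CG, which is not below the 0.193 of all CGs within 200 bp downstream of the starts. Of the 724 pairs with a CG there, 560 (77.3%) had no read in either 500-ng replicate, while the median uCG level was 3.04 reads per CG and only 6 pairs lacked uCG reads. The exceptions were few but marked: 40 pairs had at least 1 5hmC read per CG between their starts. Of these, 20 had starts more than 300 bp apart, out of 132 pairs at such a distance (15.2%). The whole windows of the 40 pairs had a median of 3.54 5hmC reads per CG, and their median uCG level between the starts was 3.39.

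The highest of them were Nisch/Sema3g, Pcdh12/Rnf14 and Odf3l1/Cspg4. Between the starts of Nisch, which encodes an integrin-binding scaffold protein, and Sema3g, a secreted semaphorin, the replicates gave 13.6 and 12.9 reads per CG over 14 CGs. For Odf3l1, a relative of sperm tail proteins, and Cspg4, the NG2 proteoglycan of pericytes and glial progenitors, they gave 13.4 and 11.4 over 12 CGs. For the endothelial protocadherin gene Pcdh12 and the ubiquitin ligase gene Rnf14 only 2 CGs lie between the starts, with 12.5 and 13.0 reads per CG. The uCG reads at the same bases were 2.45, 6.47 and 3.17 per CG, so both signals were present there.

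Median and mean levels were higher for starts more than 300 bp apart than for nearer ones. The median 5hmC level of the windows was 0.549 reads per CG for 306 pairs with starts 1 to 100 bp apart, 0.569 for 296 pairs at 101 to 300 bp and 0.767 for 132 pairs at 301 to 1000 bp, and the interquartile ranges overlapped widely (0.311 to 1.11, 0.297 to 1.17 and 0.334 to 1.69). The means were 0.865, 0.897 and 1.35. Over the 734 pairs, Pearson's r of level and distance was 0.189 and Spearman's rho was 0.035. At the limit of the rule, the 10 pairs with starts 901 to 1000 bp apart had 0.388 to 6.71 reads per CG with a median of 1.18, and 11 diverging gene combinations at 1001 to 1100 bp, which are not members, had 0.391 to 9.44 with a median of 2.03.

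Single pairs spread over a wide range around this low level. The window median was 0.601 reads per CG (quartiles 0.313 and 1.22, highest 6.78). A value below the median of one-directional promoters of the same CG number was found for 513 of the 734 pairs (69.9%), where 50.8% of all promoters tested were below it. For uCG, 172 pairs (23.4%) were below the corresponding median, against 48.6% of all promoters.

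The highest windows exceeded the median of all pairs in every hmTOP-seq library. Odf3l1/Cspg4 had 6.93 and 6.63 reads per CG in the 500-ng replicates, 5.37 and 4.55 in those of 50 ng, and 2.64 and 2.48 in those of 5 ng. Of its 92 CGs, 91.3% had a read at 500 ng. Nisch/Sema3g followed with 6.65 and 6.76 (500 ng), 3.85 and 4.50 (50 ng), and 3.13 and 2.86 (5 ng). Both stood above the 500-ng one-directional medians of their CG number (1.75 and 2.32) in every hmTOP-seq library, although the lower inputs were also sequenced less deeply.

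Cbln3, a cerebellin of cerebellar granule cells, and Khnyn, an RNA-binding protein, shared a window with 7.02 and 6.34 reads per CG at 500 ng. Between their starts, however, the level was 0.0625 in both replicates, against 8.03 and 7.87 on the side of Cbln3 and 7.47 and 6.42 on that of Khnyn. This window was thus empty at its center and high on both sides. Its uCG level, 1.28 reads per CG, was under the median of 2.91 over all pairs.

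Pcdh12/Rnf14 had 7.18 and 6.10 reads per CG at 500 ng and, at 5 ng, 2.62 and 5.10, replicates that lay far apart. Nmur1, a neuromedin U receptor gene, and Tex44, a testis-expressed gene, had 6.08 and 6.26 at 500 ng. In none of the 6 highest windows did 1 CG hold more than 9.51% of the reads, so these levels did not rest on a single site.

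Hist1h2ba and Hist1h2aa encode the H2B and H2A variants of the testis, and their starts are 306 bp apart. Their window had 6.46 and 6.13 reads per CG (500 ng), 4.28 and 3.42 (50 ng), and 1.22 and 3.12 (5 ng). At 500 ng a read lay on 88.6% of its 114 CGs. It was the only one of the 14 pairs with a clustered histone gene that lay above the one-directional median. The other 13 (92.9% below, beside 69.9% of all pairs) had 0 to 0.661 reads per CG.

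The clustered histone genes, which supply H2A, H2B, H3 and H4 during DNA replication, exist in near-identical copies, so reads that fit several copies cannot be placed with certainty. Hist1h2bq/Hist1h2ao had no read in either 500-ng library and none in the 3 uTOP-seq libraries over 266 CGs, and Hist1h2ap/Hist1h2br had 0.193 uCG reads per CG. An empty window in both assays gives no level of 5hmC, and the 14 pairs had a median uCG level of 1.71 beside 2.91 for all pairs. Members outside the Hist1 cluster, Bola1/Hist2h2ab and Hist2h2ac/Hist2h2be, had 0.661 and 0.626 5hmC reads per CG at uCG levels of 3.12 and 2.99.

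Apart from the histone pair without reads, the lowest windows held very few reads. Ankrd17, an ankyrin repeat protein gene, and Gm9958 had 0.030 reads per CG in both replicates of 500 ng, which is 14 reads in all over 233 CGs. Tgfbrap1/AI597479 had 0.010 and 0.062, 7 reads over 97 CGs. Ddx5, an RNA helicase gene, and Cep95, a centrosomal gene, had 0.042 and 0.059, 24 reads over 239 CGs. Their uCG levels of 1.77, 2.79 and 3.09 reads per CG show that reads could be placed there.

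**Figure D3:**
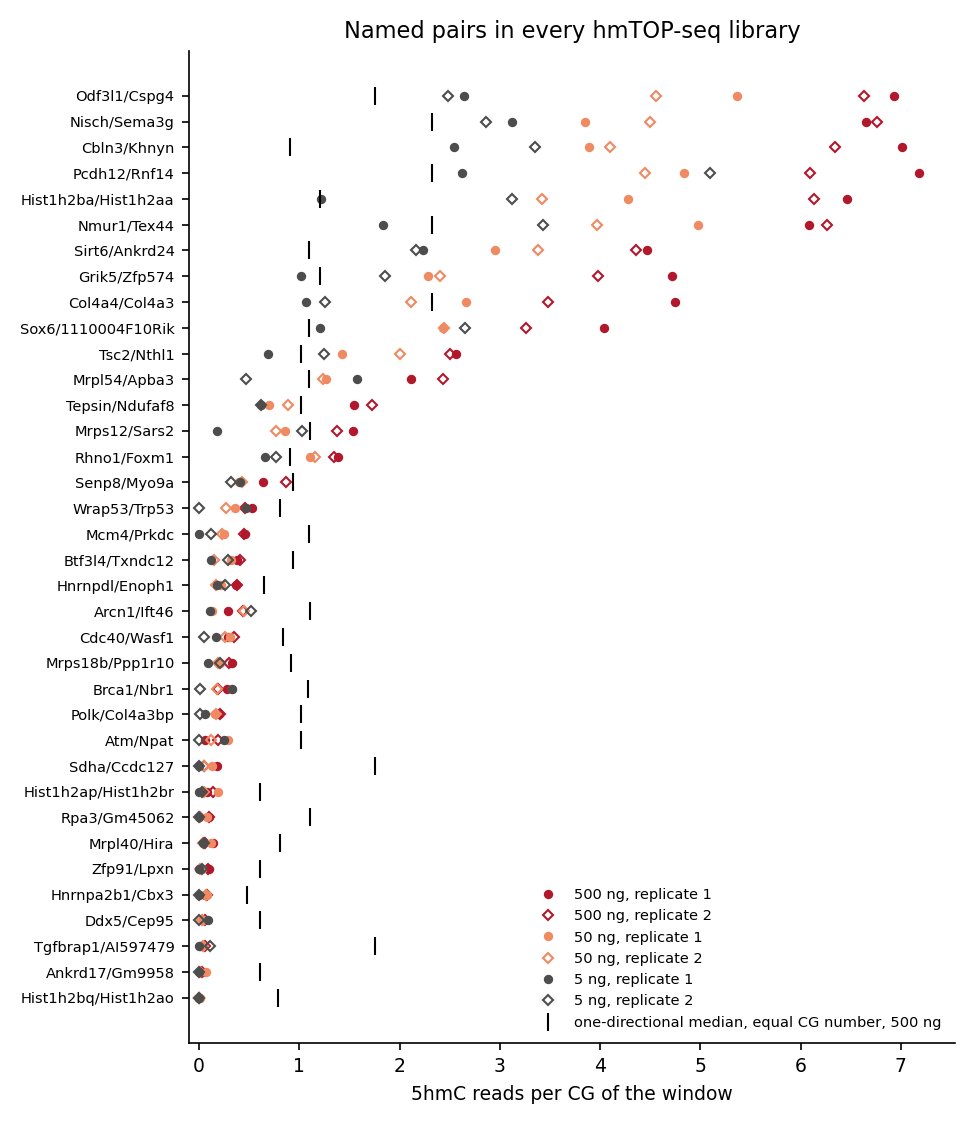
5hmC reads per CG of the named pair windows in each of the 6 hmTOP-seq libraries (filled circles replicate 1, open diamonds replicate 2), sorted by the 500-ng mean, with the median of one-directional promoters of the same CG number at 500 ng as a black bar. Reads are not scaled for depth, which falls from 500 to 5 ng; the 15 windows at the top lie above the bar at 500 ng and the other 21 below it.

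Gene groups set by name or by a list of symbols were described by the same measure. The lists were chosen with earlier results of these data known, so that no test was made on them. DNA replication and repair genes had a member in 41 pairs, with a median window level of 0.386 reads per CG (0.0992 to 2.53). The median over all pairs was 0.601. Of the 41 pairs, 36 (87.8%) were below the one-directional median, beside 69.9% of all pairs. The highest was Tsc2/Nthl1, with 2.56 and 2.50, which joins a tumor suppressor of mTOR signaling and a DNA glycosylase. The lowest were Rpa3/Gm45062, with 0.0992 in both replicates, and Rpa3/Umad1 with the same mean, where Rpa3 encodes a subunit of the single-strand binding complex. Rpa3 and the mismatch repair gene Pms1 each entered the group with 2 partners, whose windows hold the same CGs.

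Respiratory chain and assembly genes were in 23 pairs with a median of 0.625 (0.116 to 1.63), beside 0.601 for all pairs. Of the 23 pairs, 20 (87.0%) were below the one-directional median, beside 69.9% of all pairs. The levels ran from Sdha/Ccdc127 (0.182 and 0.0505), with the flavoprotein subunit of succinate dehydrogenase, to Tepsin/Ndufaf8 (1.54 and 1.73), with an assembly factor of complex I. The 18 pairs with a mitochondrial ribosomal protein gene had a median of 0.747, and 12 (66.7%) were below, close to the share of all pairs. Mrpl40/Hira, the latter a histone H3.3 chaperone, had 0.139 and 0.0594 reads per CG, whereas Mrpl54/Apba3, the latter an adapter of the amyloid precursor protein, had 2.11 and 2.44. The 18 pairs with a Zfp zinc finger gene had a median of 0.655, with 14 (77.8%, beside 69.9% of all pairs) below. Their levels ran from Zfp91/Lpxn (0.0962 and 0.0879) to Grik5/Zfp574 (4.71 and 3.97), which contains a kainate receptor subunit gene.

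Fewer pairs carried regulators. The 9 pairs with a chromatin or methylation gene had a median of 1.29, and 5 (55.6%) were below the one-directional median. Over all pairs the median was 0.601, and 69.9% were below. Hnrnpa2b1/Cbx3, an RNA-binding protein and a heterochromatin protein, had 0.0572 and 0.0741, while Sirt6/Ankrd24, with a chromatin deacetylase, had 4.46 and 4.36. All 3 pairs with a developmental transcription factor lay above the one-directional median, namely Sox6/1110004F10Rik (4.04 and 3.26), Foxa3/Sympk (mean 1.73) and Rhno1/Foxm1 (1.38 and 1.34). In the collagen and matrix group the rule found 2 pairs, Col4a4/Col4a3 and, by its name only, Polk/Col4a3bp, which encodes a lipid carrier and not a collagen and had 0.201 and 0.208.

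**Figure D4:**
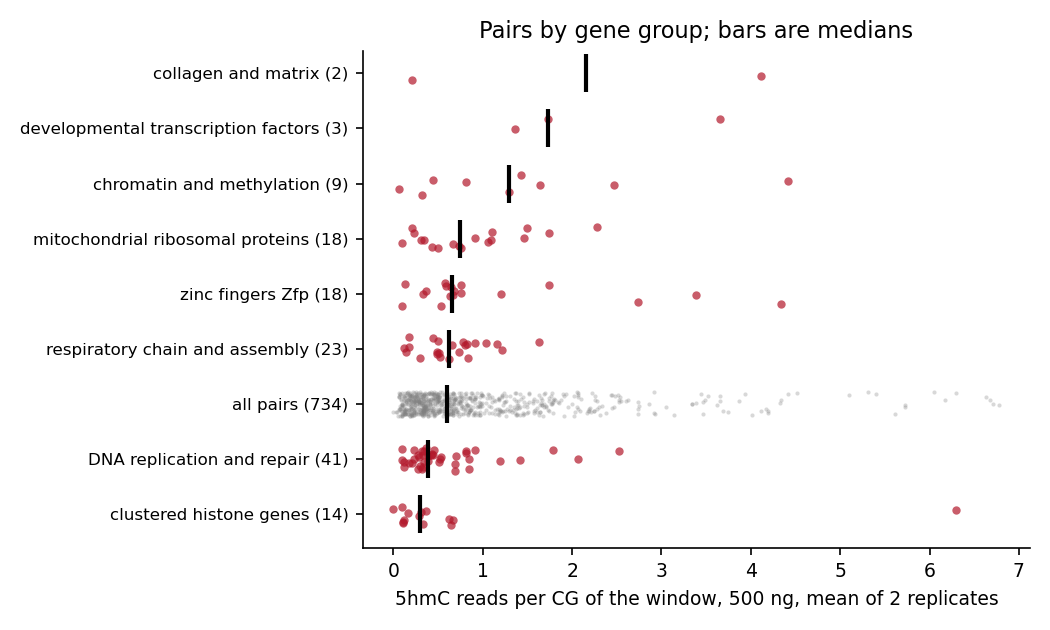
5hmC reads per CG of the windows (500 ng, mean of 2 replicates) for pairs with a member in each gene group; each point is a pair, black bars are medians and the number of pairs is in parentheses. All 734 pairs are in gray with a median of 0.601.

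Of 12 head-to-head pairs known from textbooks, 6 met the rule. Atm, the kinase that responds to DNA breaks, and Npat, an activator of histone genes, had 0.0592 and 0.184 reads per CG, followed by 0.283 and 0.118 with 50 ng and by 0.243 and 0 with 5 ng. The first 2 values rest on 37 reads in all, and the values of the inputs overlap. Brca1, of homologous recombination, and Nbr1, an autophagy receptor, had 0.276 and 0.189. Mcm4, of the replicative helicase, and Prkdc, the DNA-dependent kinase of end joining, had 0.456 and 0.443. Wrap53, a telomerase-associated protein, and Trp53, the p53 tumor suppressor, had 0.522 and 0.453. All 4 were below the one-directional medians of 0.804 to 1.10 for their CG numbers, and their uCG levels of 3.32 to 4.06 were above the median of all pairs.

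The remaining known pairs were higher. Mrps12, of the mitochondrial ribosome, and Sars2, the mitochondrial seryl-tRNA synthetase, had 1.53 and 1.38. Col4a4 and Col4a3, which encode chains of the collagen of the kidney's basement membrane, had 4.74 and 3.48 (500 ng), 2.66 and 2.11 (50 ng), and 1.06 and 1.26 (5 ng). The mean of the collagen pair at 500 ng was 4.11, and that of Atm/Npat was 0.122.

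Both sides of a pair were read from the same libraries, which allows each side to serve as the control of the other. As a class, no difference between the strands was detected: the right side over the left gave a mean log2 ratio of -0.05 (interval -0.16 to 0.06), higher on 8 of 19 autosomes (sign-flip permutation test, p = 0.349). Over the 734 pairs the 5hmC levels of both sides rose together, with a Pearson r of 0.546 and a Spearman rho of 0.495. The sides share library, depth and neighborhood, and the sides of 14556 one-directional promoters gave 0.545 and 0.609. For uCG of the pairs r was 0.365, and for the numbers of CGs it was 0.093.

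Single pairs often had unequal sides, at a share close to that of all promoters. In the quasi-likelihood test of edgeR, with the library as a block and the CG number as an offset, 453 of 732 pairs tested (61.9%) differed between their sides at an adjusted p under 0.05, of which 214 were higher on the right and 239 on the left. Over all 13240 promoters tested, 64% were called. With a log2 difference of at least 1 as well, 348 pairs (47.5%) were called beside 46.9% of all. The median absolute log2 difference was 1.04 for pairs and 1.02 for all promoters. These calls measure technical spread between libraries of one DNA.

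For uCG, 404 of 733 pairs (55.1%) were called beside 49.3% of all 13532 promoters, but with a log2 difference of at least 1 there were 51 pairs (6.96%) beside 15% of all. The median absolute log2 difference was 0.36 for pairs and 0.45 for all promoters.

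**Figure D5:**
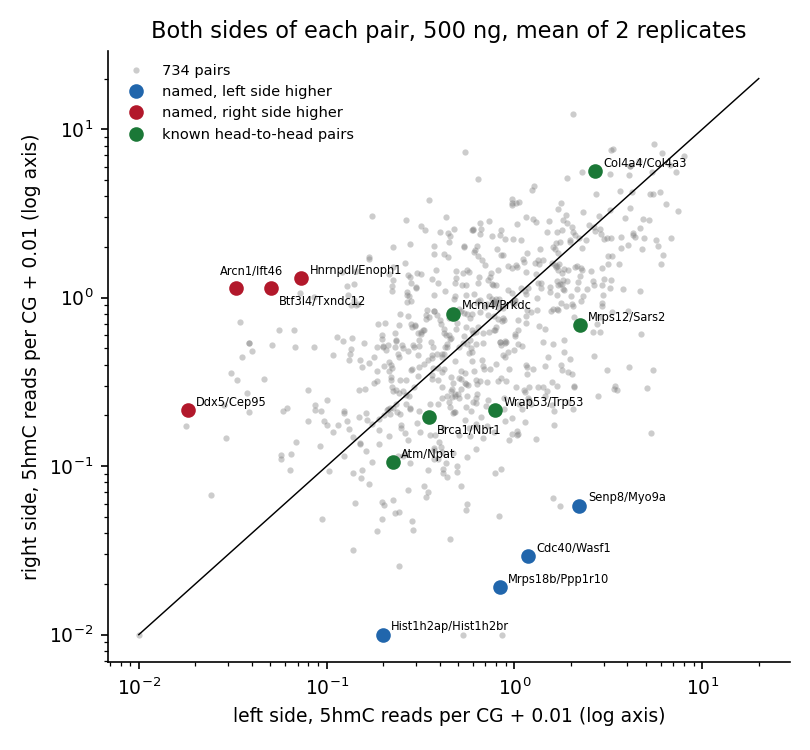
5hmC reads per CG on the left and right side of each pair (500 ng, mean of 2 replicates, log axes after adding 0.01), with the line of equality. Pairs with the largest called side differences and the known head-to-head pairs are named; Cdc40/Wasf1 and Arcn1/Ift46 lie far from the line on opposite sides.

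The largest differences to the left were those of Cdc40/Wasf1, Mrps18b/Ppp1r10, Senp8/Myo9a and Hist1h2ap/Hist1h2br. Over the left side, in the gene of the splicing factor Cdc40, 63 and 76 reads fell on 59 CGs, whereas 3 and 3 reads fell on 157 CGs in Wasf1, which encodes an actin regulator. Per CG the left side was 61.7-fold higher (exact 95% interval 27.6 to 171, which like the other intervals on reads covers counting error only). For Senp8, a protease of NEDD8, and Myo9a, an unconventional myosin, 102 and 141 reads on 55 CGs stood against 5 and 4 on 93 CGs, a 45.7-fold difference (23.7 to 101). The sides did not overlap between replicates in either pair. The uCG levels differed far less, with 2.32 and 1.77 reads per CG on the left and right of Cdc40/Wasf1 (edgeR, adjusted p = 0.023) and 2.56 and 2.14 for Senp8/Myo9a (adjusted p = 0.168).

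In Mrps18b/Ppp1r10, a mitochondrial ribosomal protein and a subunit of a nuclear phosphatase, 56 and 53 reads on the left faced 2 and 0 on the right, a ratio per CG of 89.2 with a counting interval of 24.1 to 746. In Hist1h2ap/Hist1h2br, 19 and 32 reads on the left faced none on the right. Set against 3 reads over both libraries, the left side was 10.3-fold higher per CG. The counting interval of the fold had a lower end of 8.1 and no upper end. The right side of that pair had no uCG read either, and 52.9% of its 5hmC reads fell on 1 CG, so a low level and a lack of placed reads cannot be told apart there.

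To the right, the largest differences were found for Arcn1/Ift46, Btf3l4/Txndc12, Ddx5/Cep95 and Hnrnpdl/Enoph1. Arcn1, a coat subunit of Golgi vesicles, had 2 and 2 reads on 87 CGs, and Ift46, of ciliary transport, 36 and 57 on 41 CGs, a 49.3-fold difference per CG (18.6 to 185). Hnrnpdl, an RNA-binding protein gene, had 15 and 8 reads on 182 CGs and Enoph1, of methionine salvage, 92 and 101 on 74 CGs, a 20.6-fold difference (13.4 to 33.3). In this pair uCG was also higher on the right, 4.52 against 1.73 reads per CG (edgeR, adjusted p = 1.09e-18).

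Btf3l4/Txndc12, which has the largest distance between starts of all members, had 0 and 5 reads on the left and 60 and 60 on the right, where Txndc12 encodes a thioredoxin of the endoplasmic reticulum. A single CG held 38.4% of all reads of this window. Ddx5/Cep95 had 0 and 3 reads on the left and 10 and 11 on the right, a ratio of 24.98 per CG with a wide counting interval of 7.46 to 131.

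Among the known pairs, 3 had unequal sides. Wrap53 was higher than Trp53 with 0.842 and 0.723 against 0.214 and 0.194 reads per CG (log2 difference -1.93 of right over left, edgeR, adjusted p = 3.6e-08), Mrps12 was higher than Sars2 (log2 difference -1.71, adjusted p = 6.44e-11), and Col4a3 was higher than Col4a4 (log2 difference 1.08, adjusted p = 5.61e-09). For Atm/Npat, Brca1/Nbr1 and Mcm4/Prkdc the adjusted p values were 0.32, 0.183 and 0.0617, and the counting intervals of the fold between the sides were 1.09 to 4.88, 1.06 to 3.20 and 1.20 to 2.45.

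Levels of pairs at the lower inputs followed those at 500 ng with more scatter. Pearson r between replicates over the 734 windows was 0.986 for 500 ng, 0.941 for 50 ng and 0.701 for 5 ng, and r between the mean levels was 0.983 for 500 against 50 ng and 0.913 for 500 against 5 ng. By rank the agreement was lower, with Spearman's rho of 0.967, 0.888 and 0.558 between replicates and of 0.957 and 0.835 between the inputs, in the same order. The share of windows without any read was 0.136% at 500 ng and 3.13% at 5 ng. The ratio of pairs to one-directional promoters at equal CG number was 0.663 ± 0.005 (500 ng), 0.659 ± 0.004 (50 ng) and 0.681 ± 0.005 (5 ng), with the SD over 2 libraries each, a difference between classes that was present at each input.

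No pair was called different between inputs by edgeR with TMM normalization. Of 674 pairs tested at 50 against 500 ng, 0 passed an adjusted p of 0.05, as did 0% of all 12204 promoters, and 50 had an unadjusted p under 0.05. At 5 against 500 ng, 0 of 487 pairs passed beside 0% of 9890 promoters, and 59 had an unadjusted p under 0.05. DESeq2 called 0 pairs in both comparisons, beside 0% and 0.03% of all promoters, with 19 and 42 pairs at an unadjusted p under 0.05. The unadjusted counts were made for pairs only, so they have no share of all promoters beside them. The median absolute log2 difference was 0.23 and 0.41 for pairs, beside 0.19 and 0.40 for all promoters.

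The pairs also had features in common that the rule did not use. From 250 bases before to 50 bases after a start, the 1446 distinct starts of pairs had a median of 24 CGs and a GC share of 62.7%, against 10 CGs and 54.0% for one-directional starts. Short motifs were searched on both strands in these sequences, and those of the starts of a pair largely overlap, so the starts are not independent. With a median distance of 128 bp, many pair sequences also hold the start of the partner. Those of one-directional starts hold no other protein-coding start. The part of this in the shares was not tested. The letters CCGGAAG, the core of ETS factor sites, were found at 27.7% of pair starts, at 11.03% of all autosomal protein-coding starts and at 14.4% of one-directional starts weighted to the CG number of the pairs.

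In the same order, the letters ATGGCGGC of YY1 were found at 6.78%, 2.61% and 3.65%, and the CCAAT box at 43.5%, 38.6% and 36.4%. The TATA box letters TATAAA were rarer in pairs, at 4.15%, 12.7% and 6.36%. The GC box GGGCGG was present at 68.9%, 43.7% and 73.1% and the E-box CACGTG at 11.6%, 7.82% and 11.2%, where pairs and one-directional starts of equal CG number were close. A match is a description of the letters and not of a bound factor.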

How the data were processed

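hmTOP-seq and uTOP-seq read counts of mouse embryonic stem cell DNA were used, with all library columns mapped to their samples. For hmTOP-seq the authors kept reads above a minimum length and mapping quality on mm10, removed duplicates that shared start and read length, and counted reads starting at CG sites; the steps for uTOP-seq are not given in the sources used here. The deposited counts are raw reads per CG and library, not normalized and not pooled, with strands merged for 5hmC and separate for uCG. The aligner is likewise not given. A minimum mapping quality leaves few reads in near-identical copies, and counts without molecular identifiers carry more than counting error.

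Positions were checked to lie on CGs of the reference (20383623 autosomal CGs). Reads were summed per window, side and library and divided by the CG number. Pairs and one-directional promoters were compared within bins of 10 CGs (windows) or 5 CGs (sides) per autosome, with 100000 sign flips over the 19 autosomes and Benjamini-Hochberg adjustment over 6 comparisons. Autosomes are parts of 1 genome and not biological replicates, so these p-values describe how even the difference was along it. Side and input tests used edgeR's quasi-likelihood test over all promoters with at least 10 CGs a side and 10 reads in all, or 10 reads in every library. Named pairs were the 6 highest and 4 lowest windows with at least 50 CGs, the 4 largest called side differences each way with at least 30 CGs a side and 1 sign in both replicates, the known pairs, and the highest and lowest pair of each gene group. Members and lists were chosen with earlier results of these data known. Alternatives were other bins, inputs, promoter sets, caps, a log scale, left-out replicates, DESeq2, other filters and scalings. Steps were tested on simulated data. R 4.3.3, edgeR 4.0.16, DESeq2 1.42.0, Python 3.11.15, numpy 2.4.6, pandas 2.3.3, scipy 1.17.1, matplotlib 3.10.9 and pyfaidx 0.9.0.4 were used.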

Additional observations from a re-analysis of the deposited data

How the results depend on the processing

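The 6 comparisons of pairs with one-directional promoters kept their direction and stayed past the threshold under all 61 alternative settings tried for them (other replicates, inputs, bins, promoter sets, gene lengths, caps, a log scale, flanks only, short distances), with log2 ratios of -0.77 to -0.60 for 5hmC of windows, -0.89 to -0.73 against the gene side and -0.74 to -0.62 against the upstream side, and 0.24 to 0.28, 0.23 to 0.35 and 0.30 to 0.38 for uCG. Without soft-masked sequence, an alternative chosen after seeing the data, they were also past it. From 1 to 3 kb, another such choice with CG number held equal within that zone, 5hmC of the gene side gave -0.073 and no longer passed. Side calls of 5hmC fell from 453 to 205 pairs with the 50-ng libraries (28.2%, beside 33.3% of all promoters) and to 349 with DESeq2 (47.7%, beside 51.9%). Those of uCG fell from 404 to 51 with a minimum log2 difference of 1 and to 304 with DESeq2 (41.5%, beside 38.4% of all). With a replicate left out they were 312 to 349 (42.6% to 47.6%, beside 39.9% to 42.9% of all). Leaving out 1 of the 2 libraries of 500 ng left the 5hmC side test no residual degrees of freedom, so it was not run. For inputs, leaving out a replicate gave 0 to 65 called pairs at 50 ng and 0 to 281 at 5 ng. The calls appeared only when a low-input library was left out (34 and 65 at 50 ng, 4.95% and 9.35% beside 6.07% and 8.53% of all promoters, and 281 and 274 at 5 ng, 48.7% and 48.4% beside 51.7% and 50.9%), where the lone library is assumed to vary like those of 500 ng. With the replicate number as a block 0 pairs were called in both input comparisons, beside 0% of all promoters. Without the library block the side test of 5hmC called 470 pairs (64.2%, beside 65.6% of all promoters). That of uCG called 409 pairs (55.8%, beside 50.2%). The deviations of same-numbered libraries of different inputs correlated with r = 0.0106 and 0.0201. The sources do not say whether such libraries were prepared together, and these correlations cannot decide it. Among named side differences, Ddx5/Cep95 was not called with the 50-ng libraries, at a log2 difference of 4.26 beside 4.54, and Hist1h2ap/Hist1h2br not with DESeq2, at a fitted -6.36 beside -7.36 that is no bound, since its right side has no reads. Depth limits the low windows: that of Tgfbrap1/AI597479 rests on 7 reads.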
